A study of Mus musculus with 9 samples.

Results

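The interferon-stimulated genes are the transcripts that cells switch on when interferon binds its receptor, and 33 of them were listed here, from transcription factors of the pathway to antiviral effectors. A gene counted as measured when the platform annotation gave it as the only symbol of a probe set, and where a gene had several, it was read on the one whose mean across the 9 arrays was highest. By that rule 31 of the 33 listed genes were measured, among 18193 genes in all. For Isg15 the annotation gave 0 probe sets with its symbol alone and 1 that it shares with another gene, and for Ifi44 it gave 0. Both were not analysed here.

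Epidermis was taken from the trunk of newborn mice, the offspring of parents heterozygous for an Alox12b knockout. The 4 knockout samples are labelled Alox12b-KO, and the 5 wildtype samples are labelled WT with strain 129S6, a strain the knockout labels do not give. The sheets were lifted off the dermis after hot buffered saline, with no other agent or treatment in either group. Alox12b encodes 12R-lipoxygenase, which oxidises the linoleate-bearing ceramides of the cornified layer, and its loss causes ichthyosis with a leaking barrier. The comparison asked how transcripts of newborn epidermis differ with that loss, and an interferon response is one of the programmes that damaged skin can show.

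Type I interferons signal through Ifnar1 and Ifnar2 and the kinases Jak1 and Tyk2 to a complex that holds Stat2 and Irf9. This complex, ISGF3, binds the interferon-stimulated response element (ISRE) in the promoters of its targets. Interferon gamma signals through its own receptor, and its targets carry the gamma-activated sequence (GAS). Irf1 and Irf7 are themselves induced and carry the response further. Keratinocytes can both make interferons and respond to them.

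Values are log2 expression values, the median of an array was 3.14 to 3.31, and precision is limited by how many arrays there were. Of 12 keratinocyte markers limma called 0, and 4 had an unadjusted p under 0.05, which 17.8% of all genes had. Krt1, Krt10 and Lor had group means between 14.02 and 14.36 in both groups, while Trp63, a factor of basal keratinocytes, differed by -1.42 with no overlap of the groups (limma adjusted p 0.0809). Krt15, another basal marker, differed by -1.04, while the basal keratins Krt5 and Krt14 differed by -0.34 and 0.01. Flg differed by -0.28 and Ivl, of the cornified envelope, by 0.50. Of 4 adipocyte markers 0 were called and 1 had an unadjusted p under 0.05, Adipoq at -3.06 (adjusted p 0.180), and the list's median difference was -1.25. Of 5 plasmacytoid dendritic cell markers 0 were called and 2 had an unadjusted p under 0.05, in opposite directions. These were Siglech at 0.36 and Tcf4 at -0.45, of which only Tcf4 had no overlap. That list's median difference was -0.05. The part of these marker differences in the members' values was not tested. Alox12b read 11.13 ± 0.33 (SD, n = 4) in knockout and 10.91 ± 0.29 (SD, n = 5) in wildtype, and where its probes lie relative to the deletion was not analysed here, so it does not check the labels. Xist, the RNA of the inactive X chromosome, read 9.99 to 10.20 in knockout. In wildtype it read 10.95 on array 4 and 3.23 to 4.32 on the rest. Eif2s3y, a gene of the Y chromosome, read 2.00 to 2.43 in knockout and 2.11 on wildtype array 4, against 7.67 to 8.04 on the remaining wildtype arrays. All 4 knockout arrays and 1 of the 5 wildtype arrays thus had the female pattern, and apart from that array genotype and sex cannot be told apart in any difference given here, Irf9 included. Levels of different probe sets are not compared below, because each probe set has its own background.

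The promoters of the members show which of them carry the letters that these factors bind. RefSeq promoter windows of GRCm38.p6, each 250 bases before to 50 after a gene's start, were found for 23 of the 31 measured members and not for Dhx58, Ifi27, Mx1, Mx2, Oas2, Parp14, Parp9 and Usp18. The ISRE core was searched on both strands as GAAA, any 2 bases and GAAA and the GAS as TTCNNNGAA, which reads the same on both strands. The ISRE core was in the windows of 9 of the 23 members, or 39.1%, and in those of 3.99% of all 27025 genes. The GAS letters were in the windows of 6 of the 23, or 26.1%, and of 9.55% of all genes. The 6 were Bst2, Ifi35, Ifit2, Irf1, Oas1a and Psmb8. A match describes the letters and is not a tested binding site. Overlapping matches were counted separately, and in Bst2 the GAS letters overlap an ISRE core match.

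The stretches below show the ISRE core matches upstream of 7 members and the 100 bases upstream of Irf9, the 1 member that passed the test. Each is printed from 5′ to 3′ on the gene's own strand, in lower case with ISRE core matches in capitals.
Oas1a, chr5:120907526-120907565, minus strand: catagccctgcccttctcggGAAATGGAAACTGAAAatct
Rsad2, chr12:26456543-26456592, minus strand: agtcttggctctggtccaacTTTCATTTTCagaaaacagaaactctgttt
Bst2, chr8:71537567-71537622, minus strand: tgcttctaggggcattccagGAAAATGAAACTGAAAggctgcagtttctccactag
Stat2, chr10:128270256-128270305, plus strand: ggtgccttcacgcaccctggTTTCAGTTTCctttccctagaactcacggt
Ifit3, chr19:34583353-34583436, plus strand: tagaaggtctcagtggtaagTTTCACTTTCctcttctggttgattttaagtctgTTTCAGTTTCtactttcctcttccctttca
Gbp3, chr3:142559979-142560034, plus strand: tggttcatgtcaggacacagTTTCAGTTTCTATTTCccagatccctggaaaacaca
Ifit1, chr19:34640765-34640833, plus strand: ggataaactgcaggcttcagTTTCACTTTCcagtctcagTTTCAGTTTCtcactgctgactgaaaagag
Irf9, chr14:55603885-55603984, plus strand: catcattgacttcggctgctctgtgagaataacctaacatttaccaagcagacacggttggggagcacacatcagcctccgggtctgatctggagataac

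Ifit1 and Ifit3 each have 2 such matches, and those of Oas1a, Bst2 and Gbp3 overlap each other. Gbp2 has a match 59 bases before its start, and the match of Ifih1 lies after its start. No match was found in the windows of Irf9, which says only that these letters are not there.

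Across the pathway, the data show 1 member past the threshold and no common shift. Irf9 fell in knockout, while 0 members rose. Here and below a gene is called when its adjusted p is under 0.05 in limma, fitted over all 18193 genes. The 1 of 31 called is 3.23%, beside 1.24% of all genes (0.511% higher and 0.731% lower), a count too small to set the members apart from that background. At an unadjusted p under 0.05 stood 7 members, 2 higher and 5 lower, or 22.6%, beside 17.8% of all genes (higher for 7.08%, lower for 10.7%). For 3 members, all lower in knockout, no knockout value reached the wildtype range, or 9.68%, beside 8.28% of all genes (3.14% higher and 5.14% lower). The difference, knockout minus wildtype, was positive for 19 members and negative for 12, with a median of 0.03 beside 0.02 over all genes. Its median size was 0.22 beside 0.18 over all genes.

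**Figure D1:**
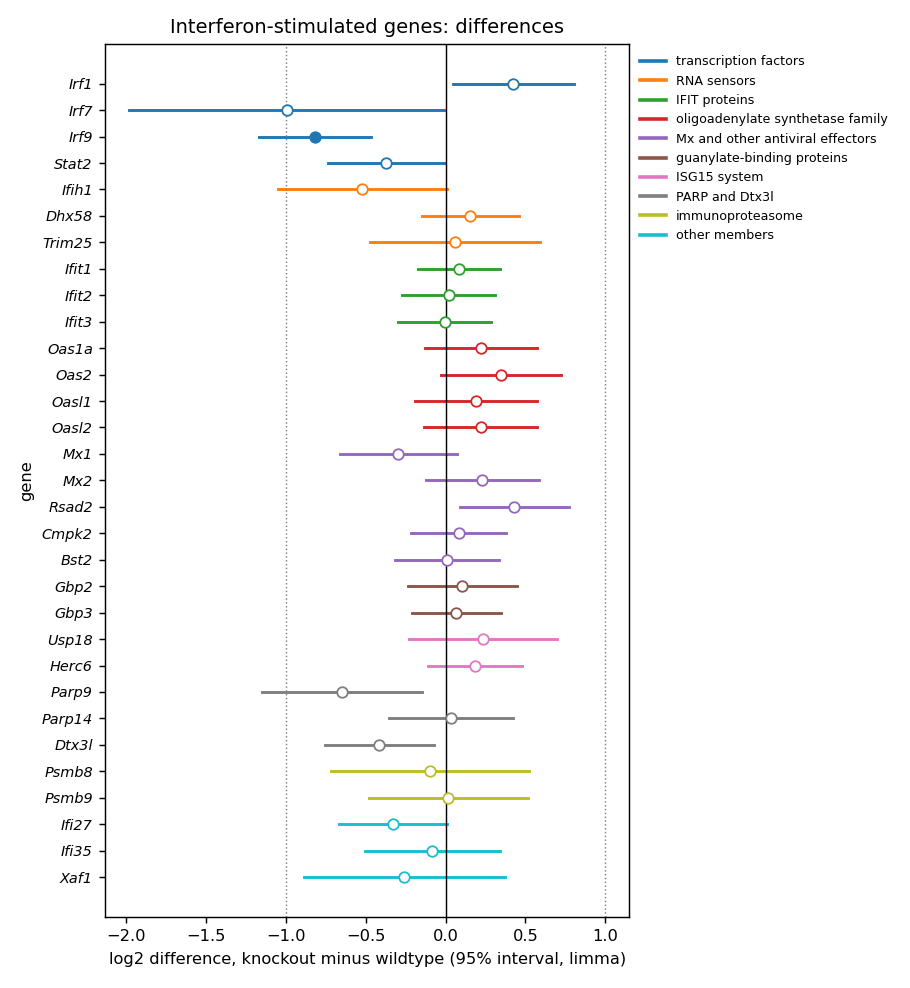
Log2 differences between the knockout (n = 4) and wildtype (n = 5) arrays for the 31 measured members, with 95% intervals from limma that are not adjusted for the number of genes. Filled points mark an adjusted p under 0.05, which only Irf9 has, dotted lines stand at -1 and 1, and 27 of the 31 intervals lie between them.

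The intervals bound what the arrays could show. For 27 of the 31 members the 95% interval of the difference lay within 1 on either side of 0 on the log2 scale, so that a 2-fold difference of the deposited values was outside it. The other 4 were Irf7, Irf9, Parp9 and Ifih1, whose intervals reached below -1. For 11 members both group means were under 3.14, the lowest array median, as they were for 31.9% of all genes. No detection calls were used, and these 11 may not lie above their background, and for such probe sets a difference of deposited values can understate a change in RNA. The arrays measure pooled sheets of cells, in which fewer cells of a type and less RNA per cell cannot be told apart.

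The transcription factors held the largest differences of the list. Irf9, the DNA-binding subunit of ISGF3, read 4.37, 3.90, 3.91 and 3.52 on knockout arrays 1 to 4. On wildtype arrays 1 to 5 it read 4.65, 4.64, 4.86, 4.69 and 4.86. The wildtype values were close together, every knockout value was below all of them, and knockout array 4 was lowest. Irf9 fell by 0.82 ± 0.16 (SE), from 4.74 ± 0.11 (SD, n = 5) to 3.92 ± 0.35 (SD, n = 4), a 1.76-fold lower level with a limma adjusted p of 0.0359. The annotation gives Irf9 1 probe set, so no second reading of the transcript was at hand.

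With 1 array left out at a time, Irf9 passed only without knockout array 1, while its difference stayed between -0.96 and -0.68. Its limma adjusted p was 0.106, 0.0713 and 0.0806 without knockout arrays 2, 3 and 4. It was 0.0811, 0.0892, 0.0787, 0.0850 and 0.0515 without wildtype arrays 1 to 5 in turn, and 0.0148 without knockout array 1. With each array centred on its median the difference was -0.86 and the adjusted p 0.0573. With the Xist level as a covariate the difference was -0.78 and the adjusted p 0.543, in a fit where 9 of all genes passed.

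Stat2, which joins Irf9 in ISGF3, read 2.73, 2.55, 2.91 and 2.88 on the knockout arrays. It read 3.06, 3.05, 2.98, 2.93 and 3.69 on the wildtype arrays. Its groups did not overlap, but knockout array 3 and wildtype array 4 nearly met and wildtype array 5 stood far above the rest. The difference of -0.37 ± 0.17 (SE) did not pass, with a limma adjusted p of 0.276. Without wildtype array 5 it was -0.23. The other Stat2 probe set differed by 0.14, with the opposite sign. The group means of both probe sets were under the lowest array median.

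Irf7, the factor that amplifies type I interferon production, had the widest interval, from -1.98 to -0.01. It read 4.14, 4.61, 4.84 and 3.71 on the knockout arrays. It read 5.31, 5.72, 6.39 and 5.44 on wildtype arrays 1 to 4 and 3.73 on wildtype array 5. All knockout values were below those of wildtype arrays 1 to 4, and wildtype array 5 was down with the lowest knockout array. The difference was -0.99 ± 0.45 (SE), with a limma adjusted p of 0.278. Without wildtype array 5 it was -1.39, and Irf7 passed with an adjusted p of 0.0435.

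Wildtype array 5 was also lowest in markers of Langerhans cells and fibroblasts. Between the groups, 0 of 15 Langerhans cell and macrophage markers and 0 of 8 fibroblast markers passed in limma (0 and 0 at an unadjusted p under 0.05). The mean of the 15 Langerhans cell and macrophage markers was 4.02 there and ran from 5.18 to 6.31 on the other wildtype arrays and from 5.08 to 5.38 on the knockout arrays. The mean of the 8 fibroblast markers was 4.88 there, the lowest of all arrays. The basal keratins Krt5 and Krt14 were also lowest of all arrays there, at 7.47 and 7.36, while Trp63 was highest, at 8.65. The part of any of these markers in the Irf7 result was not tested.

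Irf1, which responds to interferon gamma through its GAS, leaned the other way. It read 5.38, 5.18, 5.10 and 5.89 on the knockout arrays. It read 4.98, 5.17, 4.83, 5.09 and 4.73 on the wildtype arrays. The groups met between 5.10 and 5.17, and knockout array 4 was highest. The difference was 0.42 ± 0.17 (SE), with a limma adjusted p of 0.239, and it was 0.26 without knockout array 4. Fibroblast markers were also highest on knockout array 4, at a mean of 8.30 against 4.88 to 6.98 on all others. Irf9, Irf7, Ifih1 and Dtx3l were lowest of all arrays there, as was Trp63 at 5.30, while Oasl1 was highest. The part of the fibroblast markers in the Irf1 value and in those of Irf9 and the others was not tested.

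**Figure D2:**
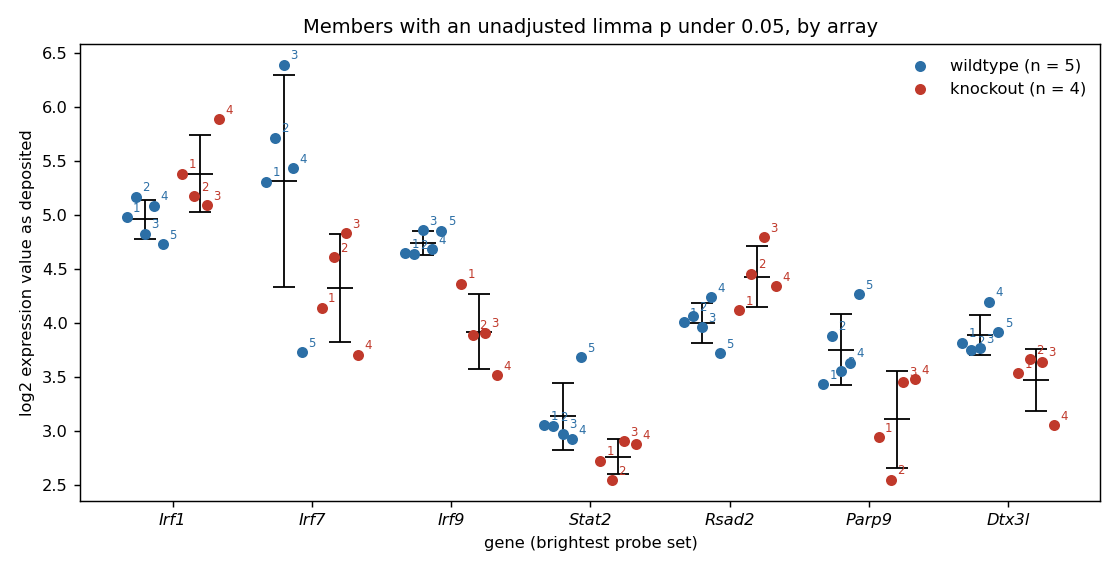
Log2 expression values on each array for the 7 members with an unadjusted limma p under 0.05. Points are arrays, numbered by replicate, and bars are group means ± SD (knockout, n = 4, wildtype, n = 5). Irf9, Stat2 and Dtx3l have groups that do not overlap, and the Irf7 value of wildtype array 5, 3.73, lies beside the lowest knockout value.

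Among the RNA sensors and their partner, none passed. Ifih1 encodes MDA5, which detects long double-stranded RNA in the cytoplasm. It read 4.88, 4.63, 4.52 and 3.76 in knockout and 4.59, 4.71, 4.89, 5.28 and 5.39 in wildtype. The groups overlapped and knockout array 4 was again lowest, with a difference of -0.52 ± 0.24 (SE) and a limma adjusted p of 0.289. Without that array the difference was -0.29. Dhx58, or LGP2, a regulator of that sensor, differed by 0.16, and its 3 probe sets differed by 0.14 to 0.18. Without knockout array 4 the difference was 0.036. Trim25, a ubiquitin ligase of the RIG-I pathway, read 8.88 on knockout array 3, which stood above 7.65 to 7.96 on its 3 companions, against 7.63 to 8.39 in wildtype. Its difference was 0.06 and turned to -0.21 without knockout array 3.

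The IFIT proteins bind viral RNA and block its translation, and their genes are usually among the steepest responders to interferon. Ifit1 read 2.27, 2.47, 2.44 and 2.70 in knockout and 2.37, 2.53, 2.26, 2.36 and 2.40 in wildtype. The difference was 0.08, with an interval from -0.17 to 0.34. Ifit2 differed by 0.02 (interval from -0.27 to 0.31) and Ifit3 by 0.00 (interval from -0.30 to 0.29). All 3 were among the 11 with means under the lowest array median. Ifit1 and Ifit3, whose upstream ISRE core matches are printed above, had differences of 0.08 and 0.00. No ISRE core match was found in the window of Ifit2.

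The oligoadenylate synthetase family makes a second messenger that activates RNase L, or in the case of Oasl1 acts without it. All 4 members had a positive difference, between 0.19 and 0.35, and none passed. Oas2 read 4.38, 4.56, 4.87 and 4.70 in knockout and 4.57, 4.12, 4.27, 4.56 and 3.86 in wildtype. The groups overlapped, wildtype array 5 was lowest, and the difference of 0.35 ± 0.17 (SE) had a limma adjusted p of 0.312. Oas1a read 5.56 to 5.95 in knockout and 5.14 to 5.77 in wildtype, again with wildtype array 5 lowest, and differed by 0.22, or by 0.13 without that array. Oasl1 differed by 0.19 and was highest on knockout array 4, at 4.46, without which its difference was 0.03. Oasl2 differed by 0.22, and by 0.13 to 0.38 with 1 array left out.

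Among the other antiviral effectors Rsad2 came nearest to the threshold. Rsad2 encodes viperin, which makes a chain-terminating nucleotide. It read 4.12, 4.46, 4.80 and 4.34 in knockout and 4.01, 4.07, 3.97, 4.24 and 3.73 in wildtype. Only knockout array 1 lay within the wildtype range, and knockout array 3 was highest. The difference was 0.43 ± 0.15 (SE), with a limma adjusted p of 0.198, and its 2 other probe sets differed by 0.30 and 0.12. Cmpk2, the nucleotide kinase gene that neighbours Rsad2 and is usually induced with it, differed by 0.08, with an interval from -0.21 to 0.38.

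The Mx genes, dynamin-like GTPases against RNA viruses, differed in opposite directions. Mx1 read 2.68 to 3.27 in knockout and 2.97 to 3.61 in wildtype, a difference of -0.30. Mx2 read 3.77 to 4.27 and 3.46 to 4.10, a difference of 0.23. Neither passed, and without knockout array 4 the differences were -0.20 and 0.14. Bst2, or tetherin, which holds budding virus at the membrane, differed by 0.01. The guanylate-binding protein genes Gbp2 and Gbp3, responders to interferon gamma, differed by 0.11 and 0.07, and both were under the lowest array median in both groups.

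Of the ISG15 conjugation system 2 genes were measured. Usp18 removes ISG15 from proteins and blocks the type I receptor. It read 2.38, 2.44, 3.35 and 2.52 in knockout and 2.04 to 2.69 in wildtype, so that knockout array 3 alone was above the wildtype range. Its difference was 0.23 with all arrays and 0.01 without that array. Herc6, the ISG15 ligase of mice, read 4.45 to 4.68 in knockout and 4.08 to 4.54 in wildtype, a difference of 0.18. It was 0.12 without wildtype array 3, and its 3 other probe sets differed by 0.17, -0.16 and -0.01.

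Parp9 and Dtx3l encode partner proteins, an ADP-ribosyltransferase family member and a ubiquitin ligase that act as a complex in the interferon and DNA damage responses, and their genes lie head to head. Both read lower in knockout, and neither passed. Parp9 read 2.94, 2.55, 3.46 and 3.48 in knockout and 3.44, 3.89, 3.56, 3.64 and 4.27 in wildtype. Knockout arrays 3 and 4 reached the lowest wildtype value, and the difference was -0.65 ± 0.23 (SE) with a limma adjusted p of 0.190. Dtx3l read 3.54, 3.67, 3.65 and 3.06 in knockout and 3.82, 3.75, 3.77, 4.20 and 3.92 in wildtype.

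The Dtx3l groups did not overlap, with knockout array 4 lowest. The difference was -0.41 ± 0.15 (SE) with a limma adjusted p of 0.211, and its other probe set differed by -0.33. Without knockout array 4 it was -0.27. The low array was thus not the same for the pair, since Parp9 was lowest on knockout array 2. Parp14, a larger enzyme of the family, differed by 0.03, and its other probe set by -0.20.

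The immunoproteasome subunits Psmb8 and Psmb9 replace constitutive catalytic subunits and favour peptides for MHC class I. Psmb8 read 3.84, 3.51, 4.02 and 3.23 in knockout, 3.91 to 4.22 on wildtype arrays 1 to 4 and 2.73 on wildtype array 5. Psmb9 was also lowest on wildtype array 5, at 3.56, and highest on wildtype array 4, at 4.70. The group means were within 0.10 for both genes. Wildtype arrays 4 and 5 were also the highest and the lowest in Langerhans cell and macrophage markers, at 6.31 and 4.02, and the part of those cells in the values was not tested.

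The remaining members did not pass. Ifi27, which encodes a small mitochondrial and nuclear envelope protein, read 6.33 to 6.68 in knockout and 6.54 to 7.17 in wildtype. Its difference was -0.33, with a limma adjusted p of 0.295. Its other probe set differed by -0.59 ± 0.17 (SE). That one read 5.44 to 6.04 in knockout and 6.09 to 6.76 in wildtype, without overlap. Ifi35, a partner of Nmi, read 7.46 to 8.24 in knockout and 7.78 to 8.29 in wildtype, a difference of -0.08. Its 2 other probe sets differed by -0.41 and -0.28. Xaf1, a proapoptotic antagonist of XIAP, differed by -0.26, and wildtype array 4 was highest at 4.66. Without that array its difference was -0.045, and without knockout array 4 it was -0.50. Its other probe set differed by 0.065, with the opposite sign. Of the 13 members with several probe sets, the sign of the difference was the same on all of them for 6.

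**Figure D3:**
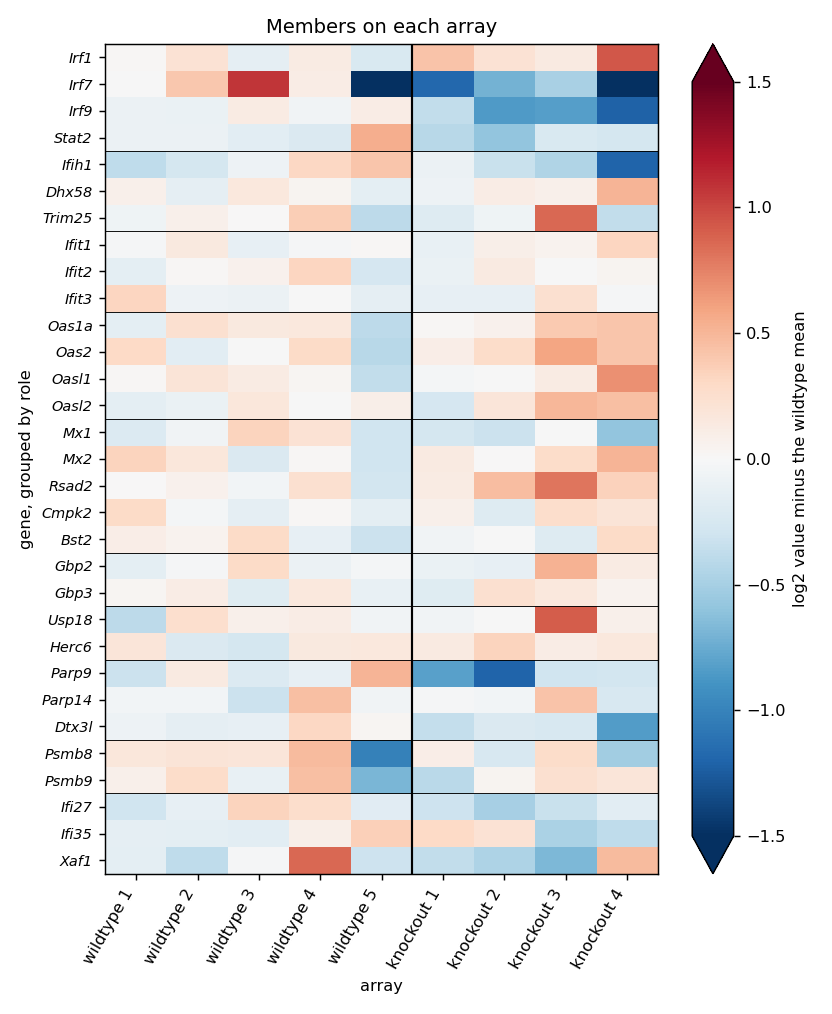
Log2 value minus the gene's wildtype mean for the 31 measured members (rows, grouped by role) on each of the 9 arrays (columns). Colours end at -1.5 and 1.5, past which 2 Irf7 values lie, and the Irf9 row is the only one with a called difference.

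No array was high or low for all members. Wildtype array 5 was the lowest of all arrays for Ifit2, Ifit3, Oas1a, Oas2, Oasl1, Mx2, Rsad2, Irf1, Bst2, Psmb8, Psmb9, Trim25 and Dhx58. It was the highest for Stat2, Parp9, Ifih1 and Ifi35. Without that array Oasl1 differed by 0.10, Mx2 by 0.16, Rsad2 by 0.36 and Irf1 by 0.37. The mean over the 31 members was 3.79, 3.81, 4.02 and 3.88 on the knockout arrays and 3.90, 3.95, 3.96, 4.09 and 3.76 on the wildtype arrays. The groups overlapped over nearly their whole range. The highest and the lowest list means both came from wildtype, on arrays 4 and 5. These were also the arrays with the highest and lowest Langerhans cell and macrophage markers, and that link was not tested.

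**Figure D4:**
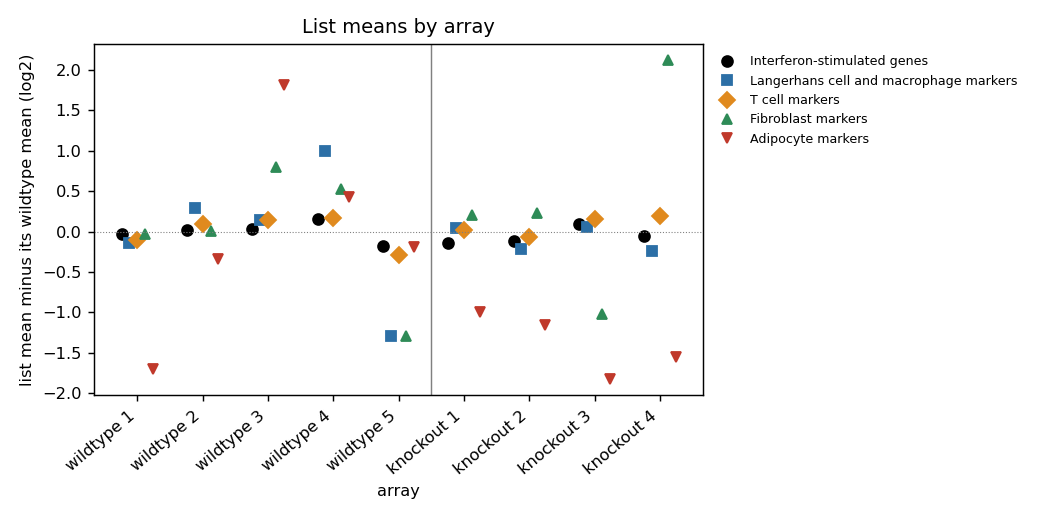
Mean log2 value of 5 lists on each array, each set to the list's own wildtype mean. Before that centring the interferon-stimulated list mean lies between 3.76 and 4.09, while Langerhans cell and macrophage markers run from 4.02 to 6.31 and fibroblast markers from 4.88 to 8.30.

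Upstream of the members, the interferon genes that were measured gave no call. Of 14 listed ligands 9 were measured, with 0 called by limma, 0 with an unadjusted p under 0.05, and a median difference of 0.19. Ifna13, Ifne, Ifnk, Ifnl2 and Ifnl3 were not measured, so nothing is said of them. Ifna1 read 3.98 ± 0.47 (SD, n = 4) in knockout and 3.57 ± 0.08 (SD, n = 5) in wildtype, and Ifna2 read 3.01 ± 0.34 and 2.65 ± 0.24. Type I interferon genes are near copies of each other, so their probe sets can share targets.

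Of the receptors and kinases 9 of 10 were measured and 0 passed in limma, with 1 at an unadjusted p under 0.05. The difference was negative for 8 of the 9, with a median of -0.23. Ifngr1, the ligand-binding chain of the interferon gamma receptor, read 7.50, 7.63, 7.38 and 7.39 in knockout and 8.19, 7.83, 8.18, 7.84 and 8.19 in wildtype. These groups did not overlap, and the difference of -0.57 had a limma adjusted p of 0.0607. Ifnlr1, the interferon lambda receptor, read 4.56 ± 0.66 (SD, n = 4) and 5.11 ± 0.24 (SD, n = 5).

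Of 5 other interferon regulatory factors measured, limma called 0 and put 0 at an unadjusted p under 0.05. The 2 largest differences there were 0.15 for Irf5 and 0.09 for Irf4. Of 16 nucleic acid sensors and adaptors 0 passed and 2 had an unadjusted p under 0.05, both higher. These were Myd88, the adaptor of most Toll-like receptors, at 0.34 (limma adjusted p 0.186), and Zbp1. The largest differences were 0.42 for Tlr7, an endosomal receptor for single-stranded RNA, and 0.39 for Zbp1, a sensor of Z-form nucleic acid. Their limma adjusted p values were 0.295 and 0.264, and only the Zbp1 groups did not overlap. Of 12 brakes on interferon signalling 0 passed and 4 had an unadjusted p under 0.05, 3 higher and 1 lower, beside 17.8% of all genes. The 3 higher were Socs3, Ptpn2 at 0.50 and Ptpn1 at 0.38, whose groups did not overlap. The 1 lower was Pias3. Socs3, an inhibitor of JAK kinases that many cytokines induce, read 8.44, 8.18, 5.89 and 6.99 in knockout and 5.91 to 6.56 in wildtype. Knockout arrays 1 and 2 were far above wildtype, array 4 was above it by less, and array 3 was level with its lowest value. The difference of 1.06 had a limma adjusted p of 0.247. Pias3 differed by -0.71, with an adjusted p of 0.0842.

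Of 15 genes of MHC class I and peptide loading limma called 0, and 11 differences were negative, with a median of -0.12. The unadjusted p was under 0.05 for 3, 1 higher and 2 lower, beside 17.8% of all genes. The higher one was Calr, at 0.32. B2m, the light chain of MHC class I, read 7.75, 7.61, 7.20 and 7.35 in knockout and 8.02, 8.22, 8.82, 8.36 and 7.88 in wildtype. Its groups did not overlap, and the difference of -0.79 had an adjusted p of 0.0835. Canx, a chaperone of MHC heavy chains, differed by -0.56. Of 36 further interferon-inducible genes 0 passed and 3 had an unadjusted p under 0.05, with a median of 0.05. The largest differences there were 0.50 for Isg20 and 0.43 for Gbp6.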

How the data were processed

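Total RNA of epidermal sheets was measured on Mouse Genome U430 2.0 arrays of Affymetrix, as the labels' protocols state. The authors deposited 1 table of log2 values for 45037 probe sets and 9 arrays. Per the submitters' processing notes the tool was affy, version unstated. The sources used here do not give how background and scale were adjusted, and values from 1.43 to 14.46 were used as deposited. Arrays have no read depth.

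Gene names came from the platform annotation, where 34945 had 1 symbol, 932 several and 9160 none. Genes were fitted with limma 3.58.1 in R 4.3.3 (lmFit, eBayes, a single genotype term, unfiltered) and Benjamini-Hochberg adjustment over 18193 genes. The code was tested on simulated data. No 2 arrays shared more than 125 identical probe set values. The labels call samples biological replicates.

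The members and lists were chosen with earlier results of these data known. All members were named. Of other lists, called genes were named or else the 2 largest differences. Myd88, Calr, Ptpn1, Ptpn2 and the single markers named were chosen after their values were seen. Cell type markers were a fixed list per type. Alternatives were other probe set summaries, quantile normalization, a level filter, centring on array medians, trended robust eBayes, Xist as a covariate, replicate number as a block and each array left out.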

Additional observations from a re-analysis of the deposited data

Results flagged for a closer look

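In 64 groups of values (31 members in each group of arrays, and the list mean) 5 had 1 array far from the others of its group by Dixon's test at its 95% level. Chance flags about 5% of such groups. Ifit3 read 2.89 on wildtype array 1, beside 2.44 to 2.56 on the other wildtype arrays. Usp18 read 3.35 on knockout array 3, beside 2.38 to 2.52 on the other knockout arrays. Stat2 read 3.69 on wildtype array 5, beside 2.93 to 3.06 on the others. Psmb8 read 2.73 on the same array, beside 3.91 to 4.22. Xaf1 read 4.66 on wildtype array 4, beside 3.43 to 3.79.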

How the results depend on the processing

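Of 219 values under alternatives other than leaving out an array, 196 kept their direction and side of the threshold. Many of the 219 could not change direction. Trended robust eBayes and the level filter leave each difference as it was, and so does the mean of probe sets for the 18 members with 1 probe set. All members but Irf9 were also uncalled in the main fit. The count of 196 therefore does not measure how stable the differences are. Without probe sets whose names end in _x_at, _s_at or _a_at the count of called members was 0. That filter goes by name only and leaves Irf9, read on an _a_at probe set, unmeasured. The count was 0 with median centring and 0 with the Xist covariate, and 0 to 1 with each array left out. Over all genes 9 passed with the Xist covariate, 119 with the replicate block and 62 to 281 with each array left out, beside 226. Deviations of same-numbered arrays from their group means correlated at -0.21, -0.10, -0.21 and 0.18. With so few arrays these values cannot settle whether the numbers pair the samples. With the replicate block Irf9 differed by -0.79 (limma adjusted p 0.117) and Irf7 by -1.39 (0.0196). Since number 5 occurs only in wildtype, that fit sets array 5 aside.

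Signs of small differences turned. With quantile normalization Ifit2 was -0.043, Ifi35 0.023 and Parp14 -0.025. With median centring Ifit2 was -0.023, Bst2 -0.033, Psmb9 -0.025 and Parp14 -0.0074. With the Xist covariate Ifit2 was -0.26, Gbp3 -0.070, Psmb9 -0.41, Trim25 -0.29 and Parp14 -0.34. With the replicate block Ifit2 was -0.045, Ifi35 0.0056, Bst2 -0.070, Psmb9 -0.15 and Trim25 -0.038. With the mean of probe sets Psmb8 was 0.062 and Parp14 -0.085. With each array left out Bst2 ranged from -0.082 to 0.080, Gbp2 from -0.033 to 0.18, Ifi35 from -0.21 to 0.047, Ifit2 from -0.045 to 0.099, Ifit3 from -0.088 to 0.075, Parp14 from -0.097 to 0.15, Psmb8 from -0.35 to 0.044, Psmb9 from -0.15 to 0.16 and Trim25 from -0.21 to 0.20. The cause was not tested. With 4 and 5 arrays, signal near background limits the dim members.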
